A study of Mus musculus with 22 samples.

Results

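Clones of one collecting duct cell line that were all given the same class of vasopressin agonist differed in how much aquaporin-2 their GFP-negative cells contained, and 1076 genes separated the clones the same way. The cells were mpkCCD, an immortalised mouse line from the cortical collecting duct, and 4 clones of it with a GFP reporter of Aqp2 were used: C1, C11, C43 and C50. All clone cells received dDAVP (desmopressin), which activates the V2 receptor for vasopressin. Each clone was sorted by GFP into a negative and a positive fraction, and 2 libraries were made from each. Unsorted wild-type (WT) cells without the reporter received vehicle or dDAVP, with 3 libraries each. Each clone is a single derived line, so a difference between sides is a difference among 4 lines. The medium of all groups held dexamethasone. The labels name more than 1 dose and duration of dDAVP for the series and tie none of them to a library, and they do not say whether libraries of a group came from separate cultures. The p-values below therefore measure the spread between these libraries, which may be technical.

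The genes were chosen by their values in the GFP-negative libraries. Clones C43 and C50, with Aqp2 above 1000 TPM (a relative transcript abundance scaled by transcript length) in both libraries, formed the Aqp2-high side. Clones C1 and C11, below 300 TPM, formed the Aqp2-low side. Of 54514 entries in the table, 13164 had a mean of at least 1 TPM over the 8 GFP-negative libraries, and a gene was kept where its 4 high-side and 4 low-side values did not overlap. That left 437 genes higher on the Aqp2-high side (3.32% of those tested) and 639 lower (4.85%). These shares and every GFP-negative difference below are descriptions of the choice and were given no test. The tests use libraries the choice did not use: the same clones' GFP-positive cells, and WT cells with and without dDAVP. A difference is on the log2(TPM + 1) scale, high side minus low side unless said otherwise, and this scale understates the change of low genes. A gene is called where limma's p-value, adjusted over all genes tested, was under 0.05.

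Vasopressin binds the V2 receptor on the basolateral side of collecting duct principal cells and raises cyclic AMP. Protein kinase A then moves aquaporin-2 water channels to the apical membrane within minutes and raises transcription of Aqp2 over hours. Principal cells also reabsorb sodium through the epithelial sodium channel and the sodium pump, whose pumping rate is tuned by small FXYD proteins.

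The labelled cell type was checked against marker genes. All 11 collecting duct markers had a mean of at least 1 TPM, with sums of 13300 to 14300 TPM in high-side and 12200 to 12700 TPM in low-side libraries. The list includes Aqp2, which set the sides, so these sums are no independent comparison of them. Krt18 made up much of each sum, at 7057 to 8474 TPM. None of the 5 endothelial, 6 fibroblast, 5 lymphocyte, 4 loop of Henle and 4 distal tubule markers reached a mean of 1 TPM. Of 5 podocyte markers 2 did, and their list summed to 15.3 to 35 TPM on the high side and 33.2 to 47.7 on the low side. Of 5 macrophage markers 2 did as well (17.4 to 31.6 and 20.9 to 27.6 TPM), as did 1 of 8 proximal tubule markers (4.3 to 8.23 and 0.94 to 14.3 TPM) and 1 of 5 intercalated cell markers (0.6 to 2.76 and 0.81 to 2.99 TPM). TPM keep no depth, so the depth of a library is unknown. One library stood apart: in replicate 1 of the C50 GFP-negative cells, ribosomal protein genes made up 8.38% of all TPM, against 4.27% to 5.38% in the other GFP-negative libraries. Transcripts under 1000 bases made up 20.7% of its TPM, against 11.5% to 14.5%. The main list medians that it moved are given with and without it. In bulk RNA, fewer cells of a type and less RNA per cell cannot be told apart.

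Some sequences upstream of the genes the account turns on are shown here, because a cyclic AMP response element near the start site is a textbook feature of the Aqp2 promoter. Each line gives the 250 bases before a gene's start from RefSeq (build GRCm38.p6), 5′ to 3′ on the gene's strand, in lower case. Capitals mark TGACG, the core of the cyclic AMP response element, and GATAA, the core bound by GATA factors, on either strand. Aqp2, Fxyd4 and Gstt1 were higher in the Aqp2-high clones and Lmcd1 was lower.
Aqp2 (chr15:99578806-99579055, plus strand): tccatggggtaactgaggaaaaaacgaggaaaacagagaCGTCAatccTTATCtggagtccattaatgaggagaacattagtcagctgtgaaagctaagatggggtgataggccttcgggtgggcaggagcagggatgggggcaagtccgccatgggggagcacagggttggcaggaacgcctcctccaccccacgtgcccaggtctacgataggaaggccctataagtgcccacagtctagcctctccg
Fxyd4 (chr6:117937336-117937585, minus strand): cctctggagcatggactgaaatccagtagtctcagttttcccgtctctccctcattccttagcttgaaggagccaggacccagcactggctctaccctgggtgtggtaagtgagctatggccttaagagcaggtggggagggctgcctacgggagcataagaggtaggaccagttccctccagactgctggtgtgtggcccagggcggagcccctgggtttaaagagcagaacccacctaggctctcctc
Gstt1 (chr10:75797732-75797981, minus strand): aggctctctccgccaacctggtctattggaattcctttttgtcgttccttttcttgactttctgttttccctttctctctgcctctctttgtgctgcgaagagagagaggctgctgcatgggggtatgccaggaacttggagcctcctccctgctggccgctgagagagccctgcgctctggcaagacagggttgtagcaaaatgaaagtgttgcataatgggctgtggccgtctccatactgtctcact
Lmcd1 (chr6:112273508-112273757, plus strand): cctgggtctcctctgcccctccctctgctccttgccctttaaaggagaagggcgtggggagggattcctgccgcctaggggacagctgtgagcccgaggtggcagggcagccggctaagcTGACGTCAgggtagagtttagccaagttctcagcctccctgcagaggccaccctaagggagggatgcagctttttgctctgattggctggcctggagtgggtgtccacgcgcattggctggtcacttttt
The Aqp2 window held one match to each core, both on the opposite strand. The Fxyd4 and Gstt1 windows held neither core. The Lmcd1 window held the full palindrome TGACGTCA, in a gene that was lower where Aqp2 was high. A match is a string of letters and not evidence of binding, and a window without one says only that these letters are absent there. Of the genes with an entry, 332 were on the higher and 488 on the lower side. The core TGACG, which also lies within the palindrome, occurred in 25.9% of higher, 28.9% of lower and 28.5% of the 9368 tested genes' windows, and in 17.9% of all 27025 windows. The palindrome occurred in 3.92%, 3.07%, 2.87% and 1.62% of the same sets, in that order. GATAA was in 17.8% of higher, 11.1% of lower, 13.7% of tested and 23% of all windows. The TEAD core GGAATG was in 13.3%, 14.3%, 10.6% and 12.6%. The ETS core CCGGAAG was in 17.5%, 13.7%, 15% and 7.05%, the AP-1 site TGANTCA in 1.81%, 2.66%, 4.2% and 6.87%, the hypoxia core ACGTG in 24.4%, 25%, 22.4% and 16.6%, and the NF-kB site GGGANTTCC in 1.51%, 1.23%, 2.01% and 1.42%.

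Aqp2, which defined the sides, had the largest difference of the higher genes. In GFP-negative cells it stood at 72.6 and 66.5 TPM in C1 and at 263 and 236 TPM in C11. It stood at 1568 and 1679.8 TPM in C43 and at 1232 and 1254 TPM in C50. The mean of the high side was 8.99 times that of the low side (1433 ± 225 and 159 ± 104 TPM, SD, n = 4 each). In GFP-positive cells the order of the clones was the same and the span narrower: 2027 and 2008 TPM in C1, 2896 and 3108 in C11, 4894 and 4409 in C50, and 6649 and 7254 in C43. The 4 high-side GFP-positive libraries lay above the 4 low-side ones, by 1.21 (SE 0.0489, limma adjusted p 5.5e-05). With the 4 clone means as the units, an exact permutation test (two-sided) gave p 0.3333, the smallest that 6 arrangements allow. In unsorted WT cells Aqp2 was 64.1, 74.9 and 68.4 TPM with vehicle, close to GFP-negative C1 under dDAVP, and 2820.2, 3025 and 2759 TPM with dDAVP. The reporter itself did not separate the sides: GFP ran from 9.84 to 13.3 TPM in the low-side and from 5.31 to 17.6 in the high-side GFP-negative libraries. Nor did Avpr2, the V2 receptor, at 137 to 179 TPM on the low and 148 to 177 TPM on the high side, and in GFP-positive cells its difference was 0.14 (limma adjusted p 0.0547).

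**Figure D1:**
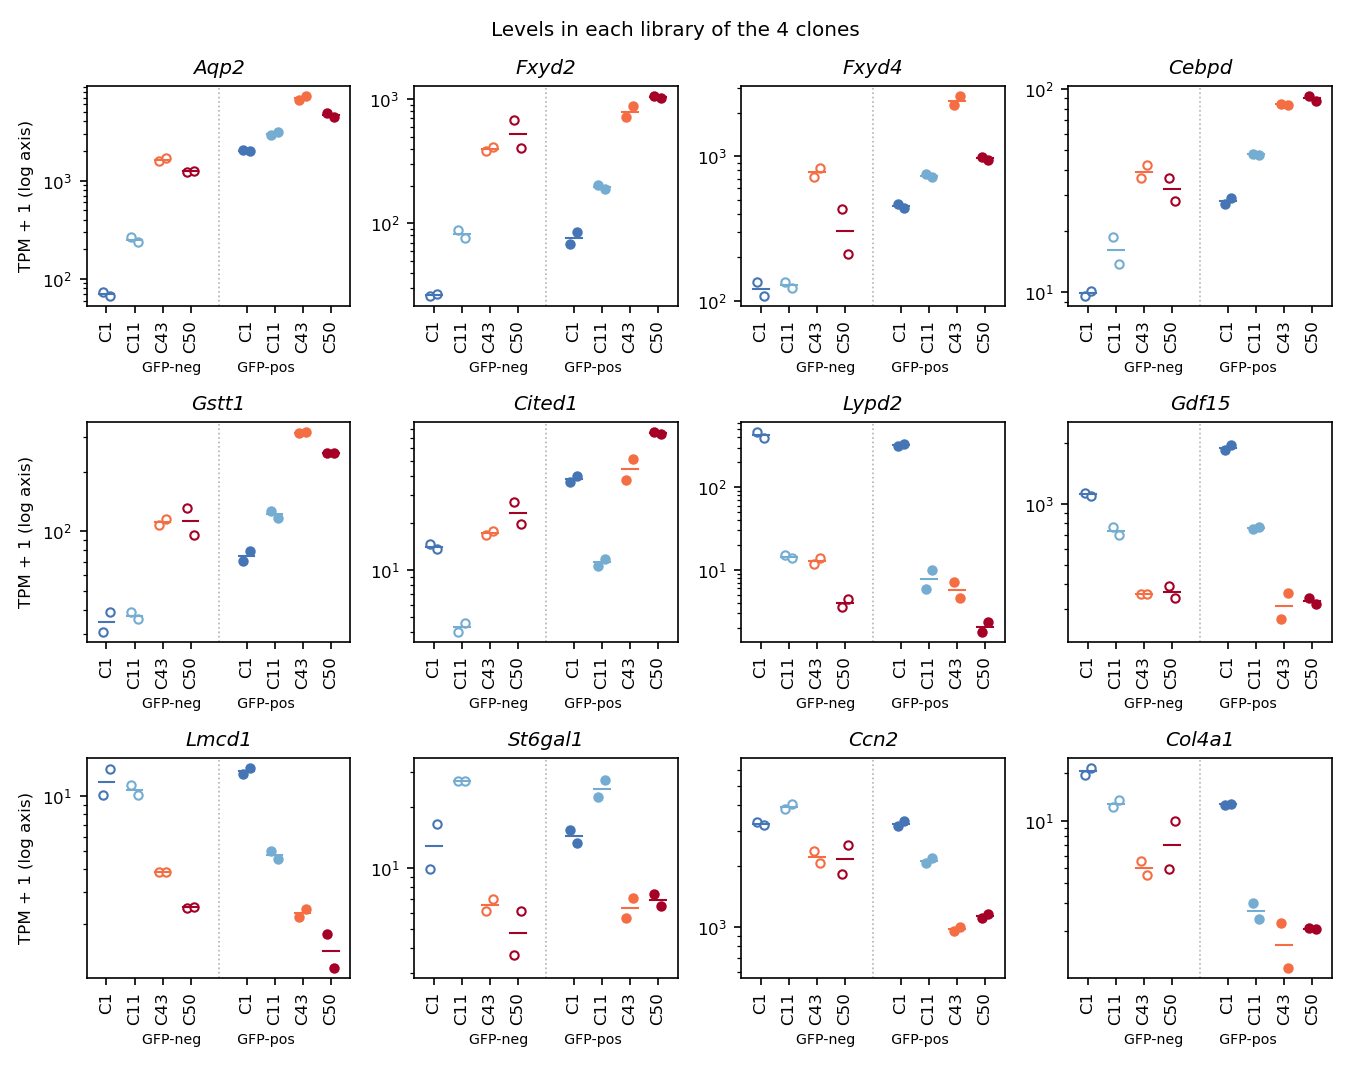
TPM + 1 (log axis) of 12 genes in each library of clones C1, C11, C43 and C50, in GFP-negative (open points) and GFP-positive cells (filled points), with the mean of the logs of each pair as a line. Aqp2, Fxyd2 and Cebpd stood higher in C43 and C50 in both fractions, and Gdf15 and Lmcd1 stood lower in both.

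Of 18 principal cell genes with a mean of at least 1 TPM, Aqp2, Fxyd4 and Fxyd2 were on the higher side and St6gal1 was on the lower. Over all tested genes 3.32% were higher and 4.85% lower. The regulators of the sodium pump stood out by size. Fxyd2, the pump's gamma subunit, was 25.3 and 25.9 TPM in C1 and 88.3 and 75.1 in C11, against 379.5 and 414 in C43 and 684 and 404 in C50. The sides were far apart, and C11 stood above C1 within the low side. In GFP-positive cells Fxyd2 was higher by 2.89 (SE 0.0894, limma adjusted p 1.41e-05), with 67.8 to 202 TPM on the low and 718 to 1059 TPM on the high side. With dDAVP in WT cells it went from 139, 168 and 161 to 247, 185 and 219 TPM, a difference of 0.47 that missed the threshold (limma adjusted p 0.0569). Fxyd4 (CHIF), a corticosteroid-induced FXYD protein of the collecting duct, was 107 to 134 TPM on the low side and 717 and 836 in C43, and 433 and 209 in C50. It was called higher in GFP-positive cells (1.41, adjusted p 5.5e-05) and with dDAVP in WT cells (1.06, adjusted p 0.00102).

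The other principal cell genes did not separate. The sodium channel subunit Scnn1a differed by -0.82 between sides in GFP-negative and by -0.31 in GFP-positive cells (limma adjusted p 0.00905 in the latter). Over the list, the GFP-positive fit called 8 genes of 18 higher and 3 lower (7.00% and 11.0% over all genes). The median was 0.263 against -0.0234 over all genes. Without clone C1 the fit called 4 higher and 4 lower (0.753% and 1.22% over all genes). The list's median in GFP-negative cells, -0.0483, changed sign with the scaling: it was 0.042 with median ratios, 0.002 with quantiles, 0.12 after correction for length and GC content and 0.135 without C50 replicate 1.

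Cebpd, a C/EBP transcription factor, rose with Aqp2. Over the 8 GFP-negative libraries its Pearson r with Aqp2 on the log2(TPM + 1) scale was 0.981, as was that of Fxyd2, and the next were Uqcrfs1 (0.977), Prdx3 (0.968), Pop4 (0.962) and Naa20 (0.961). Among the lower genes named, Gdf15 had r -0.992 and Slco3a1 -0.983. These correlations describe pairs of libraries that share a clone, and the genes were selected for separating the same libraries. Cebpd was 8.64 and 9.20 TPM in C1, 17.8 and 12.8 in C11, 35.3 and 41.2 in C43, and 35.6 and 27.1 in C50. In GFP-positive cells it was 26.3 to 47.0 TPM on the low and 82.6 to 91.3 on the high side (1.24, limma adjusted p 6.36e-05). With dDAVP in WT cells it rose from 2.82, 3.69 and 3.73 to 31.0, 28.4 and 28.8 TPM (2.79, adjusted p 8.03e-05). Among the other 20 collecting duct transcription factors tested, Hoxd10 was on the higher side, and Rela was among those on the lower. Gata3, Elf3, Ehf and Tfcp2l1 did not separate.

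Most of the other large higher genes kept their direction in GFP-positive cells. Sprr2g, a small proline-rich protein of epithelia from a family of close copies whose reads can be shared, was 13.6 to 19.1 TPM on the low and 49.1 to 67.0 on the high side. Gstt1, a glutathione transferase, was 30.0 and 37.8 TPM in C1, 38.0 and 34.7 in C11, 107 and 114 in C43 and 130.0 and 94.8 in C50. Both were called higher in GFP-positive cells (1.98 and 1.55, limma adjusted p 9.23e-05 and 3.71e-05) and with dDAVP (2.22 and 1.24, adjusted p 0.000316 and 0.00165). Rnf186, a membrane-bound ubiquitin ligase, was 31.5 and 25 TPM in C1, 87.8 and 96.7 in C11 and 111 to 168 on the high side, and was called in both tests as well (1.53 and 0.77). Slc16a5, a monocarboxylate transporter, was 3.71 to 5.75 TPM on the low side and 11.3 and 10.2 in C43, and 18.1 and 34.1 in C50. In GFP-positive cells C1 (9.07 and 6.11 TPM) overlapped C43 (5.72 and 8.88), and the difference was called (1.08, adjusted p 0.00619). Its dDAVP difference of 0.12 did not pass.

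Cited1, a coactivator of CBP and p300, did not follow Aqp2's order. It was lowest in C11, at 3.04 and 3.58 TPM, while C1 had 13.6 and 12.7. C43 had 15.7 and 16.7 TPM and C50 had 26.2 and 18.7. The gap between the sides rested on C1 lying just under C43. In GFP-positive cells C1 (35.4 and 39.0 TPM) overlapped C43 (36.9 and 50.3), and the side difference of 1.48 was called (adjusted p 0.000363). That difference was 2.36 without C1 and 0.593 without C11. With dDAVP in WT cells Cited1 rose from 1.04, 1.25 and 0.70 to 39.6, 37.5 and 38.3 TPM (4.31, adjusted p 2.91e-05).

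Airn, the imprinted antisense RNA of the Igf2r region, was listed at 0 in both C1 libraries and at 0.07 and 0.06 TPM in C11, but at 7.35 and 4.40 TPM in C43 and 1.44 and 2.87 in C50. WT libraries had 2.55 to 4.38 TPM. In GFP-positive cells it was at most 1.00 TPM on the low and 2.30 to 8.15 on the high side (2.15, limma adjusted p 0.00281). The library kit is not described as keeping the strand, so its reads and those of an overlapping gene cannot be told apart. The provisional gene Gm3375, named after its values were seen, was high in every group but C11: 55.0 and 46 TPM in C1, 76.4 and 67.7 in C43 and 92.7 and 66.9 in C50, against 0.74 and 0.21 in C11.

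Of the 639 genes lower where Aqp2 was high, 67 differed by at least 1, against 30 of the 437 on the higher side. The balance of the sides depended on the scaling and on C50 replicate 1: there were 546 higher and 588 lower genes with median ratios, 625 and 542 with quantiles, and 684 and 708 without that library. Lypd2, a Ly6 family surface protein, led by size but was mainly a mark of clone C1, with 464 and 395 TPM there, 14.0 and 13.0 in C11, 10.7 and 12.8 in C43 and 2.58 and 3.48 in C50. Its GFP-positive values overlapped between C11 (4.94 and 9.03 TPM) and C43 (6.17 and 3.54), and the call there (-3.87, adjusted p 0.000129) was lost without C1. Gdf15, a stress-induced cytokine, was graded over both low clones: 1125 and 1099 TPM in C1, 771 and 703 in C11, 358 and 357 in C43 and 392 and 341 in C50. In GFP-positive cells it was 751 to 1965 TPM on the low and 268 to 359 on the high side (-1.91, adjusted p 6.36e-05, and -1.24 without C1). With dDAVP in WT cells Gdf15 moved the other way, from 899.8, 934 and 978 to 1186, 1178 and 1171 TPM (0.33, adjusted p 0.0201). That call held in 6 of 15 alternatives, with adjusted p from 0.00482 to 0.152.

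St6gal1, a sialyltransferase of the principal cell list, was 8.83 and 15.6 TPM in C1, 25.9 and 26.0 in C11 and 2.69 to 6.04 on the high side. It was called lower in GFP-positive cells (-1.5, adjusted p 0.000574), with no overlap between 12.3 to 26.2 and 4.63 to 6.43 TPM. Lmcd1, a LIM-domain cofactor that represses GATA6, was 9.16 to 13.1 TPM on the low side, 2.84 in both C43 libraries and 1.45 and 1.5 in C50, and was called in GFP-positive cells (-2.16, adjusted p 0.000561). Npr3, the natriuretic peptide clearance receptor, was 13.8 and 15.8 TPM in C1, 8.43 and 10.1 in C11, 6.38 and 6.92 in C43 and 0.70 and 0.84 in C50 (GFP-positive -2.25, adjusted p 0.000293). Sult1c2, a sulfotransferase, fell in the same steps in GFP-negative cells, from 56.0 and 63.4 TPM in C1 to 4.02 and 4.55 in C50, and in GFP-positive cells (-1.56, adjusted p 0.00018). It rose with dDAVP in WT cells (1.11, adjusted p 0.00499). The provisional gene Gm43305, named after its values were seen, was 461 to 507 TPM in the 4 low-side libraries, 114 and 130.1 in C50 and 19.6 and 19.5 in C43.

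Matrix and YAP/TEAD target genes were on the lower side where they separated. Of 30 matrix and integrin genes, 5 were lower and 0 higher, where 4.85% and 3.32% of all tested genes were. The 5 were Col4a1 and Col4a5, chains of basement membrane collagen, the laminin-binding proteoglycan Agrn, the integrin Itgb5 and Fras1 of the Fraser complex. Col4a1 was 18.4 and 20.5 TPM in C1, 11.1 and 12.5 in C11, 4.52 and 3.49 in C43 and 3.94 and 8.99 in C50. The list's median was -0.454 in GFP-negative cells (-0.319 without C50 replicate 1), -0.339 in GFP-positive cells and -0.503 with dDAVP in WT cells, where all genes had -0.157. After correction for length and GC content these medians were -0.15, -0.219 and -0.176. The GFP-positive fit called 9 of 28 lower, where 11.0% of all genes were, and 0 higher (14 lower and 3 higher at an unadjusted p under 0.05). Without C1 it called 2 lower, where 1.22% of all genes were. Without C43 it called 7 lower and 4 higher (median -0.102), and without C50 12 lower and 0 higher (median -0.498). The WT fit called 12 of 30 lower, where 6.51% of all genes were, and 0 higher. It called 9 lower with median ratios, 18 without dDAVP replicate 2 and 5 to 7 without any other 1 library. Lower calls over all genes were 878 in the main WT fit, and 306, 1665 and 161 to 247 in the same order.

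Of 20 YAP/TEAD genes, 3 were lower, where 4.85% of all tested genes were, and 0 higher. Ccn1 and Ccn2 are secreted matricellular proteins whose genes are used as readouts of YAP, and Amotl2 is a junctional YAP target. Ccn2 was 3181 to 4052 TPM on the low and 1834 to 2545 on the high side, and in GFP-positive cells 2063 to 3327 and 948 to 1150.4 (-1.33, limma adjusted p 1.41e-05, and -1.02 without C1). The Ccn1 call in GFP-positive cells (-0.31, adjusted p 0.016) depended on the clones compared: the difference was 0.015 without C1 and 0.008 without C43. The list's median in GFP-negative cells was -0.407, and it was -0.195 without C50 replicate 1 and -0.177 after correction for length and GC content. It was -0.419 in GFP-positive cells, where 9 of 19 genes were called lower and 1 higher (11.0% and 7.00% over all genes). Without C1 the GFP-positive calls were 2 lower and 0 higher (1.22% and 0.753% over all genes), and without C43 they were 4 and 1, with a median of -0.123.

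Of 26 immediate early genes, 6 (23.1%) were lower, where 4.85% of all tested genes were: Fosb, Myc, Klf6, Dusp1, Dusp5 and Ccn1. Dusp2 was higher, and the list's median was -0.278 (-0.178 without C50 replicate 1). In GFP-positive cells the list was split, with 5 of 26 called higher and 7 lower (7.00% and 11.0% over all genes) and a median of -0.086. Without C43 12 were called higher and 4 lower there, with a median of 0.172. Without C50 1 was called higher and 11 lower, with a median of -0.341. Fosb (-0.11), Klf6 (0.02) and Myc (-0.34) were not called in GFP-positive cells (limma adjusted p 0.763, 0.9 and 0.111). Dusp1, a MAP kinase phosphatase, was 888 to 1102 TPM on the low and 689 to 844 on the high side, and was called lower in GFP-positive cells (-0.51, adjusted p 0.000333) and with dDAVP (-0.66, adjusted p 0.0013). Of 24 NF-kB genes, the inhibitor Nfkbib was higher and Rela, Nfkbiz and the chemokine Cxcl5 were lower (3.32% and 4.85% over all tested genes). Rela was 391 and 412 TPM in C1, 235 and 259 in C11 and 124 to 232 on the high side. Among GFP-negative libraries Cxcl5 was highest in C1 (15.9 and 14.7 TPM, at most 2.70 in the other clones), and it rose with dDAVP in WT cells (1.48, limma adjusted p 0.00937). The NF-kB median was -0.414 in GFP-negative cells (-0.275 without C50 replicate 1), -0.08 in GFP-positive cells and 0.081 with dDAVP in WT cells.

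The remaining lists held few members, to be read against 3.32% higher and 4.85% lower over all tested genes. Of 34 epithelial junction genes, Cldn1, Cldn2 and Marveld3 were lower and 0 were higher. Cldn2, a claudin of leaky epithelia, was 4.07 to 7.14 TPM on the low and 1.36 to 3.73 on the high side, yet rose with dDAVP in WT cells (1.17, limma adjusted p 0.0215), a call that held in 8 of 14 alternatives (adjusted p 0.0144 to 0.111). Of 28 G1 and p53 genes listed, 26 were tested, and Ccnd3, Cdkn1a and Trp53inp1 were lower. In 27 cyclic AMP response genes, Cited1 was higher and the CREB coactivator Crtc1 lower. Of 25 sterol synthesis genes, 3 were higher (Fdps, Nsdhl and Ebp) and 0 lower. One of 32 interferon genes, Oas1g, and 1 of 7 class I genes, H2-T23, were higher, and Ly6e was the only member among 20 gasdermin and defence genes. The GFP-positive interferon median of 0.297 turned to -0.105 without C1 and -0.248 without C43, and it was 0.547 without C11 and 0.784 without C50. The trafficking (29 tested), keratin (8), intercalated cell (8) and retinoid and steroid receptor (14) lists held no member.

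Ribosomal protein genes held the largest share of members of any list: 23 of 57 were higher and 0 lower, where 3.32% and 4.85% of all tested genes were. Their median difference was 0.387, and it was 0.204 without C50 replicate 1 and 0.27 after correction for length and GC content. With that library left out of the choice, 23 were higher and 0 lower. Rpl32 shows the pattern: 1742 to 2019 TPM on the low side, 2028 and 2256 in C43, 2121 in C50 replicate 2 and 3774 in C50 replicate 1. In GFP-positive cells the median was 0.0829, with 10 called higher and 4 lower (7.00% and 11.0% over all genes). The calls were 3 higher and 0 lower with chromosome medians subtracted, and 1 and 0 without C1 (6 and 2 at an unadjusted p under 0.05). Without C1, 0.753% of all genes were called higher and 1.22% lower. The ribosomal calls were 10 higher and 7 lower without C11, 5 and 8 without C43, and 13 and 0 without C50. Of 36 histone genes, a group formed after the values were seen, 7 were higher and 0 lower (3.32% and 4.85% over all tested genes). H3c1 and H2bc4 were among the 7. The median of the 36 histone genes, 0.561, was 0.323 without C50 replicate 1. Histone genes have near-identical copies between which reads can be split, so single genes are uncertain.

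The members differed in transcript length. The longest annotated transcript (GENCODE M21, by Ensembl identifier) had a median of 1510 bases for the higher genes, 3867 for the lower and 3015 for all tested. Among genes with transcripts under 1000 bases, 6.5% were higher and 0.963% lower. Among those of 5000 bases or more, 0.522% were higher and 6.86% lower. Over all tested genes the median difference went from 0.186 in the shortest to -0.255 in the longest class, and from 0.144 to -0.0838 without C50 replicate 1. In GFP-positive cells, where no library stood apart in this way, it went from 0.0513 to -0.0674. With C50 replicate 1 left out of the choice, 684 genes were higher (median length 1884) and 708 lower (3707). The part of transcript length in the members' differences was not tested beyond these values and a length and GC correction, under which 454 genes were higher and 509 lower, with 602 of the 1076 shared.

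**Figure D2:**
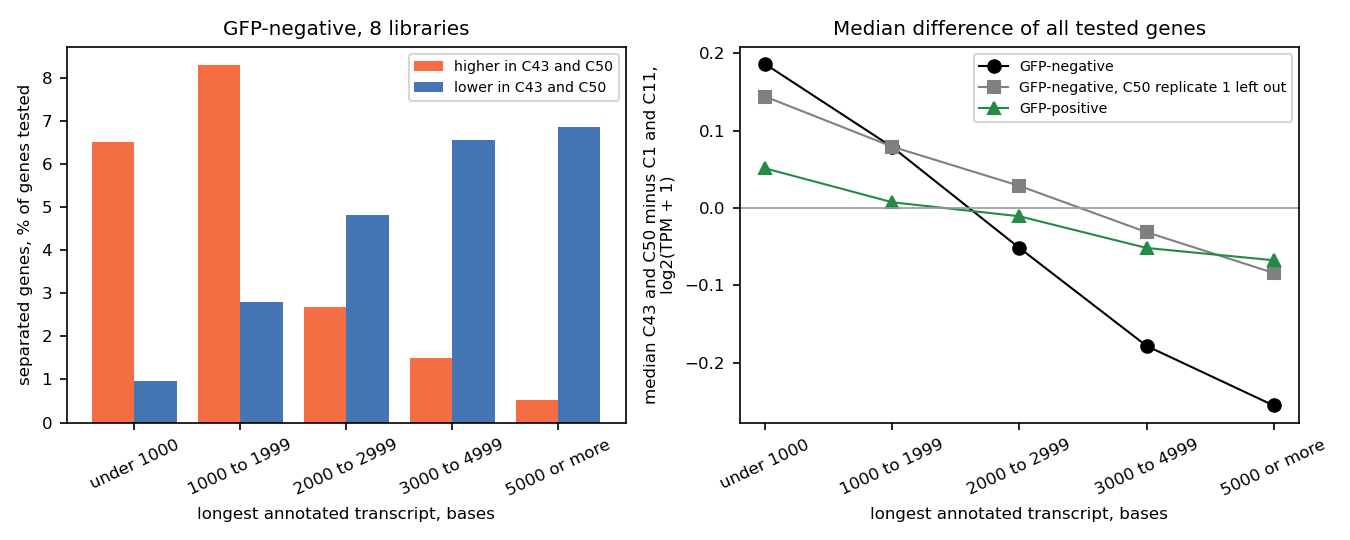
Left, percent of tested genes in each class of transcript length that separated higher (orange) or lower (blue) in C43 and C50 in the 8 GFP-negative libraries; right, median difference of all tested genes in log2(TPM + 1), with and without C50 replicate 1 and in GFP-positive cells. The share of higher genes was largest under 2000 bases, and the slope of the medians was less steep without C50 replicate 1.

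How far the members held in cells the choice did not use was read from the GFP-positive fraction. Of 428 higher genes tested there, 121 (28.3%) were called higher and 18 lower, where 7.00% of 12963 genes were called higher and 11.0% lower. Of 623 lower genes, 268 (43%) were called lower and 0 higher. Signs were shared by 343 (80.1%) and 577 (92.6%). The medians were 0.164 and -0.331, against 0.415 and -0.568 in GFP-negative cells. The 4 against 4 GFP-positive libraries did not overlap, in the same direction, for 73 higher (17.1%) and 175 lower genes (28.1%), where 3.43% and 6.13% of all tested genes did so. Both fractions come from the same 4 clones, so the shared direction says nothing about other lines. With clone means as the replicates limma called 0 genes (422, or 3.26%, at an unadjusted p under 0.05, among them 29 of the higher and 94 of the lower genes), and with the clone as a random block it called 0 (789 unadjusted).

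**Figure D3:**
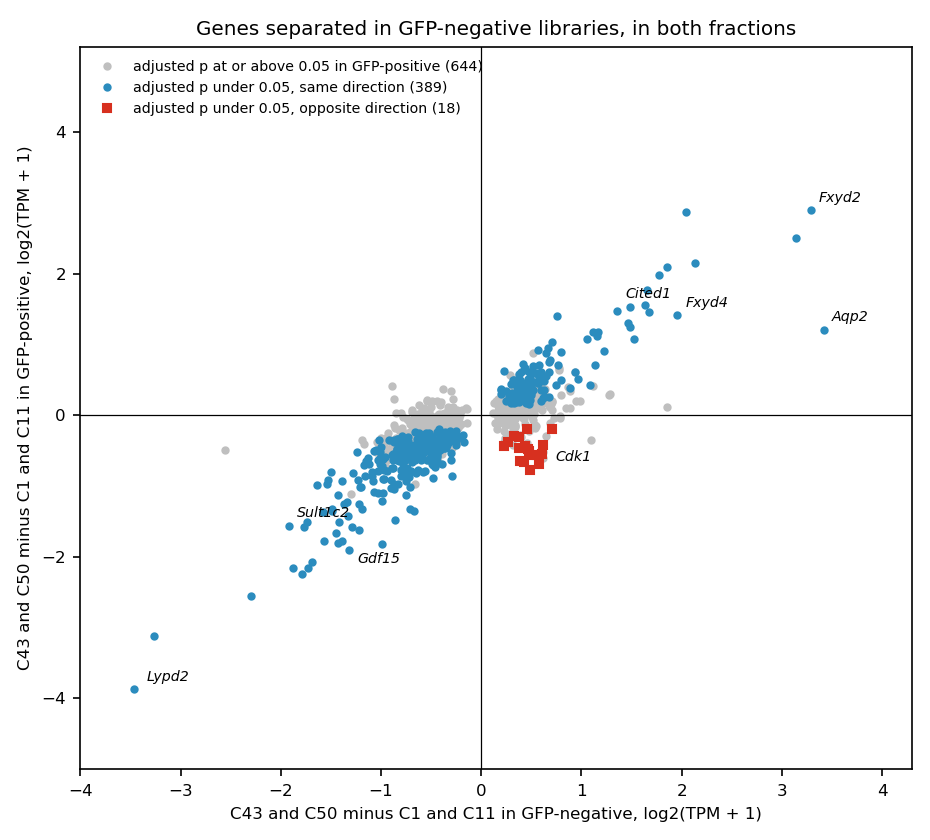
Difference between C43 and C50 and between C1 and C11 in GFP-negative cells (horizontal) against the same difference in GFP-positive cells (vertical), in log2(TPM + 1), for the 1051 separated genes tested in both. Blue points were called in the same direction in GFP-positive cells (389), red squares in the opposite direction (18), and grey points were not called (644).

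The calls depended on clone C1. Without it, the GFP-positive comparison of C43 and C50 with C11 alone called 98 genes higher and 159 lower of 13022, and 62 members remained called in both fits, 26 higher and 36 lower. Shared signs then stood at 66.0% of higher and 84.8% of lower genes, where 42.3% of all genes were positive and 57.7% negative. The 26 include Cited1 (2.36), Fxyd2 (2.22), Slc16a5 (1.54), Sprr2g (1.42), Gstt1 (1.20), H2bc4 (1.07), Fxyd4 (1.07), Aqp2 (0.92) and Cebpd (0.86). The 36 include St6gal1 (-1.90), Npr3 (-1.87), Fbxo2 (-1.71), Fras1 (-1.49), Sult1c2 (-1.25), Gdf15 (-1.24) and Ccn2 (-1.02). Against 389 members called in the same direction with all 8 libraries, the fit called 184 to 247 members without any 1 library of C1, C11 or C50, and 376 or 446 without one of C43.

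The 18 higher genes called lower in GFP-positive cells included genes of cell division, and also Tnfrsf12a and Selenoh. In GFP-negative cells 5 of 30 mitosis genes were higher on the Aqp2-high side and 0 lower, where 3.32% and 4.85% of all tested genes were. The 5 were the kinases Cdk1 and Aurkb, the centromeric histone Cenpa, the ubiquitin-conjugating enzyme Ube2c and Birc5 (survivin). Cdk1 was 332 and 288 TPM in C1, 384 and 372 in C11, 498 and 429 in C43 and 625 and 572 in C50. In GFP-positive cells it was 231 and 249 in C1, 187 and 185 in C11, 150.3 and 175 in C43 and 158 and 148 in C50. The sides did not overlap in either fraction, and their order was reversed (GFP-positive -0.42, adjusted p 0.00583). Aurkb reversed in the same way, from 73.5 to 84.5 and 88.1 to 127 TPM to 31.0 to 54.8 and 21.7 to 29.3 TPM. The interaction between fraction and side was not tested.

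Over all 30 mitosis genes the median difference was 0.169 in GFP-negative cells (0.245 without C50 replicate 1, 0.287 with quantiles and 0.301 after correction for length and GC content) and -0.543 in GFP-positive cells, where 23 were called lower (11.0% over all genes) and 0 higher. Without C1, where 1.22% of all genes were called lower, the GFP-positive fit called 0 of them (5 lower at an unadjusted p under 0.05), with a median of -0.211. Against the mean of all 16 clone libraries, the median mitosis gene stood at 0.125 and 0.056 in GFP-positive C1, and at -0.636 to -0.905 in GFP-positive C11, C43 and C50. In GFP-negative libraries it ran from 0.278 to 1.09. From the GFP-negative to the GFP-positive fraction it changed by -0.438 in C1 and -1.07 in C11, and by -1.43 in C43 and -1.55 in C50. Of 30 DNA replication genes in GFP-negative cells, Gins1 was higher and Mcm2, Mcm4, Mcm6 and Cdt1 were lower (3.32% and 4.85% over all tested genes). The median of the 30 was -0.217 (-0.108 without C50 replicate 1). In GFP-positive cells 27 of them were called lower, Gins1 included, and 0 higher (median -0.585), and without C1 4 were called lower (24 at an unadjusted p under 0.05), with a median of -0.363. With dDAVP in WT cells 19 of 30 mitosis and 23 of 30 replication genes were called lower, where 6.51% of all genes were. These counts were 5 and 9 with median ratios, and 8 and 22 with quantiles. Without 1 WT library they ran from 4 to 20 and from 7 to 23. The medians stayed negative in these alternatives. Lower calls over all genes changed too, from 878 to 306, 372 and 161 to 1665 in that order.

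**Figure D4:**
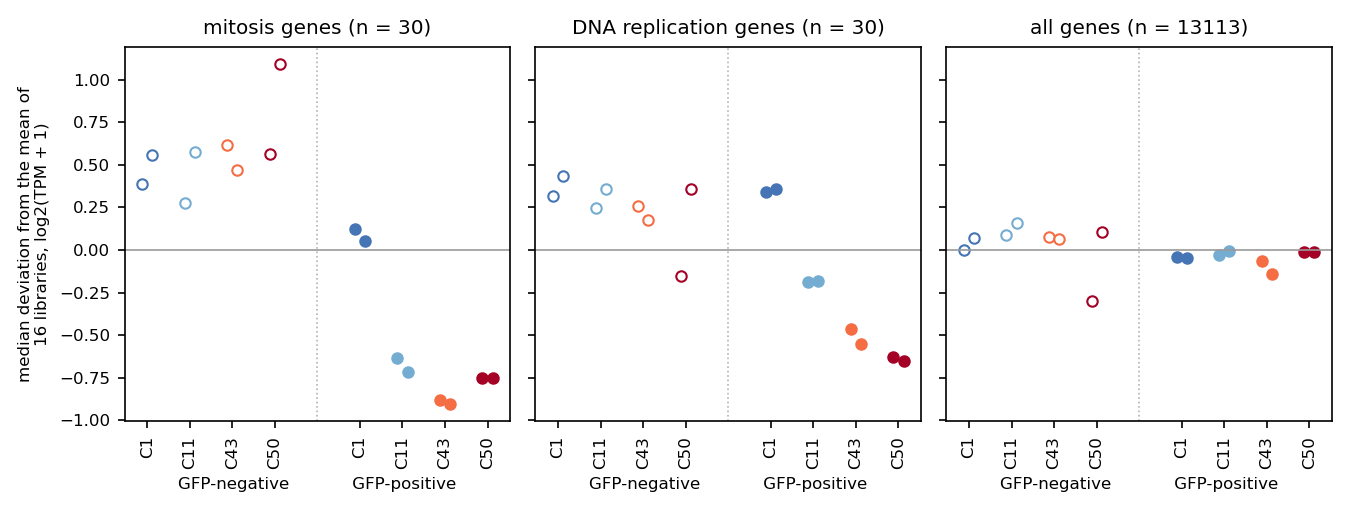
Median deviation from the mean of 16 clone libraries, in log2(TPM + 1), over 30 mitosis genes, 30 DNA replication genes and all 13113 genes with a mean of at least 1 TPM, for each library. GFP-negative libraries (open points) stood above GFP-positive ones (filled points) for mitosis genes in each clone, and GFP-positive C1 stood above the other GFP-positive clones.

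The members were also compared with the dDAVP response of WT cells. Of 430 higher genes tested there, 22 (5.12%) were called higher with dDAVP and 10 (2.33%) lower, where 2.37% of 13494 genes were called higher and 6.51% lower. Of 630 lower genes, 93 (14.8%) were called lower and 17 (2.70%) higher. The medians were 0.0715 and -0.25, against -0.157 over all genes. That overall shift depends on the scaling: it was -0.022 with quantiles and -0.009 after correction for length and GC content. Calls over all genes went from 320 higher and 878 lower to 451 and 306 with median ratios, 438 and 372 with quantiles and 662 and 439 after that correction. Among the 142 members called, the split went from 39 higher and 103 lower to 47 and 33, 43 and 45, and 68 and 46 in that order. The count of members called was 246 without dDAVP replicate 2, and 33 to 46 without any other 1 of the 6 libraries.

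Called in one direction in GFP-positive and WT cells alike were 20 higher genes: Acot9, Aqp2, Bcat1, Cebpd, Cited1, Cystm1, Fbxo36, Fbxo4, Fxyd4, Gstt1, H1f2, H3c1, Ly6e, Mrpl35, Pinx1, Rnf186, Rpl10, Sdhaf1, Sprr2g and Tuba4a. On the lower side they were 61, a count that depended on the WT scaling and libraries: it was 25 with median ratios, 34 with quantiles, 93 without dDAVP replicate 2 and 9 to 20 without any other 1 library. The higher count was 21, 24, 30 and 13 to 15 in the same order. With a replicate block 2 lower and 10 higher genes remained. The share of all tested genes called in both tests is not given here, so these counts have no background beside them. Dusp1 and Fras1 kept their dDAVP call in all 15 alternatives tried, Col4a1 in 13 and Ccn2 in 3. Of the members called in their own direction in GFP-positive cells, 1 higher and 13 lower genes were called the opposite way with dDAVP. The lower count was 17 with median ratios and 21 after correction for length and GC content, where 26 were called in their own direction. It was 4 to 7 without any 1 WT library other than dDAVP replicate 2, and 13 without that one. Fras1 fell with dDAVP from 47.4, 36.6 and 38.3 to 8.75, 14.4 and 10.3 TPM (-1.80, limma adjusted p 0.00276). Its clone levels ran from 16.6 to 26.0 TPM on the low and 2.93 to 13.5 TPM on the high side.

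The lower genes were not spread evenly over chromosomes. Chromosomes, as GENCODE M21 lists them for each identifier, were used without coordinates because the build of the table is not given in the sources used here. Of the 639 lower genes, 270 (42.3%) lie on chromosomes 5, 8 and 9, which hold 17.6% of tested genes. The share of tested genes that was lower was 12% on chromosome 5, 11.4% on chromosome 8 and 11.4% on chromosome 9. Higher genes were most frequent on chromosome 10 (7.02%) and chromosome 13 (6.2%). In GFP-positive cells 21.7% of genes on chromosome 5, 26.5% on 8, 22.6% on 9 and 26.6% on 19 were called lower, and 23% on chromosome 10 were called higher.

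The median level of some chromosomes differed between clones. Each value here is the median, over a chromosome's genes with a mean of at least 5 TPM, of the difference from the WT mean after the library's own median was subtracted. Chromosome 9 stood at 0.382 in GFP-negative and 0.395 in GFP-positive C1, and between -0.005 and 0.029 in the other clones. Chromosome 10 stood at -0.382 and -0.407 in C1, and between 0.017 and 0.042 elsewhere. Chromosome 8 was near WT in C1 (0.052 and 0.049) and lower in the other 3 clones (-0.272 to -0.327). On chromosomes 9 and 10, then, only C1 stood apart, and on chromosome 8 C11 resembled the high-side clones.

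Other chromosomes set some clones apart without following the sides. Chromosome 12 stood at -0.262 and -0.256 in C43, chromosome 16 at -0.352 and -0.259 in C50, and chromosome 14 at -0.217 to -0.295 in C11 and C43. These values were similar in both fractions of a clone. Chromosome 5 differed: it stood at 0.277, 0.081, 0.046 and 0.040 in GFP-negative C1, C11, C43 and C50, and at -0.017, -0.021, -0.210 and -0.180 in their GFP-positive cells. Its level thus differed both by clone and by fraction. With each chromosome's median subtracted, 566 genes were higher and 546 lower, and 628 of the 1076 were shared. Chromosome copy number was not measured, and its part in these differences was not tested.

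**Figure D5:**
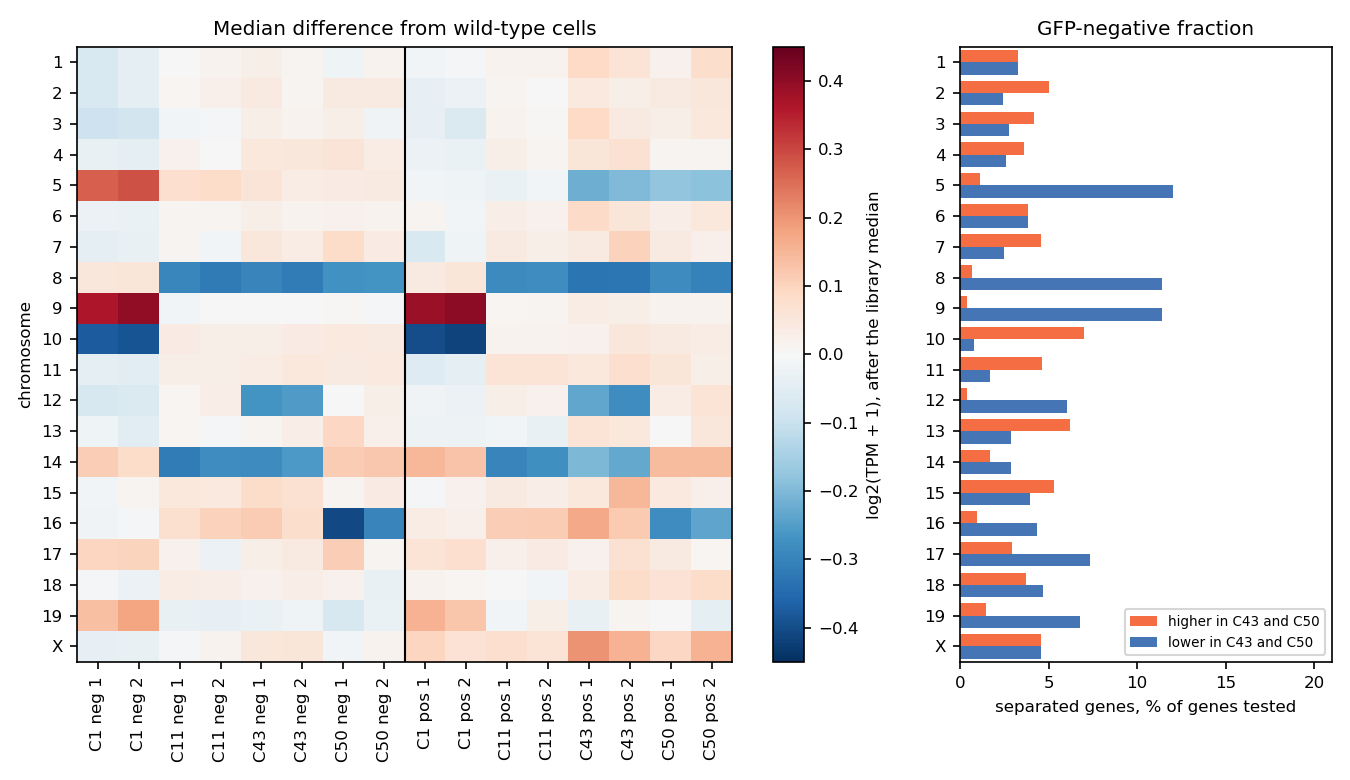
Left, median difference from WT cells in log2(TPM + 1), after the library's median, for the genes of each chromosome (rows) in each clone library (columns, GFP-negative then GFP-positive); right, percent of tested genes on each chromosome that separated higher or lower in C43 and C50. Chromosomes 9 and 10 stood out in both fractions of C1, and chromosome 8 in C11, C43 and C50.

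The order of C43 and C50 depended on C50 replicate 1. With it, the clone means ran C1, C11, C43, C50 from low to high in 246 of 437 (56.3%), and in Aqp2's own order, with C43 above C50, in 71 (16.2%). The lower genes ran C50, C43, C11, C1 in 401 of 639 (62.8%). Without that library the same orders held for 144 higher (33%) and 187 lower genes (29.3%), and Aqp2's order for 173 higher genes (39.6%). The median of C50 minus C43 was then -0.014 for higher and 0.0277 for lower genes. The median level of the lower genes, 25.2 TPM, was near that of all tested genes (21.6), and that of the higher genes was 71.7. In C50 the lower genes stood 0.612 lower in replicate 1 than in replicate 2 (median difference -0.612, against -0.367 over all genes), and the higher genes stood 0.237 higher. At the limit of the choice, the lower gene Tcf25 and the higher gene Pole4 just separated, with gaps of 0.000169 and 0.000454. Alyref2 and Cyp4f13 just failed, with tied values between the sides (6.16 and 48.9 TPM), as did 3 microRNA precursor entries listed at 0 in all but 1 of the 8 GFP-negative libraries.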

How the data were processed

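RNA abundance was measured in 22 libraries, 16 of which are the clone libraries described above. The values are the TPM deposited by the authors in a single table, made with STAR and RSEM per the submitters' processing notes. The genome build and annotation are not given in the sources used here, and TPM hold no depth, so no counting error could be computed. Of 55415 lines, 980 that share 79 symbols were summed within symbols, which left 54514 entries. Genes with a mean of at least 1 TPM over the libraries compared were tested as log2(TPM + 1), with limma 3.58.1 (trended variance, R 4.3.3, statmod 1.5.0), and p-values were adjusted by Benjamini-Hochberg over all of them. The main GFP-positive fit used 8 libraries and the WT fit 6. The scripts were tested on simulated data. Promoters and lengths were matched by symbol or Ensembl identifier.

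The members and the gene lists were chosen with earlier results of these data known. Genes named are the 15 largest differences on each side (mean of at least 5 TPM, provisional genes left out), the 10 largest in GFP-positive cells on each side, members in a list, the 10 most like Aqp2 and the 5 nearest the limit on either side, besides Aqp2, GFP and Avpr2. Same-numbered libraries did not deviate together (r -0.162 to 0.134 between GFP-positive clones, and -0.208, -0.0254 and -0.109 in WT cells), so the numbers were not used as pairs. Alternatives tried were other filters, pseudocounts, scalings and variance models, a replicate block, clone-level fits and leaving out libraries or clones. The corrections for length and GC content and for chromosome medians were added after the data were seen. Results for some genes are not reported here.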

Additional observations from a re-analysis of the deposited data

Results flagged for a closer look

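In 11 genes every GFP-negative library of C43 and C50 lay above those of C1 and C11, while every GFP-positive library lay below them. These were 11 of the 428 higher genes tested in GFP-positive cells, where 6.13% of all tested genes separated lower. The difference between the fractions was not tested. Tnfrsf12a, the receptor of the cytokine TWEAK, was 578 to 645 TPM on the low and 884 to 996 on the high side in GFP-negative cells. In GFP-positive cells it was 106 to 155 and 68.8 to 91.4 TPM, so it was also lower in that fraction of every clone (0.58 in GFP-negative and -0.69 in GFP-positive cells). The kinases Aurkb and Cdk1 went from 0.42 to -0.67 and from 0.62 to -0.42. Cenpa, the centromeric histone, went from 0.48 to -0.51, and Mad2l1, of the spindle checkpoint, from 0.39 to -0.64. Gins1, of the replicative helicase, went from 0.49 to -0.56, and the histone gene H4c4 from 0.47 to -0.48. Without C1, Aurkb, Cdk1, Cenpa and Gins1 were not called in GFP-positive cells (limma adjusted p 0.212 to 0.4). Their differences were then -0.31, -0.24, -0.33 and -0.39. Cks1b, a cyclin-dependent kinase subunit, went from 0.45 to -0.20, Pmf1, of the kinetochore, from 0.27 to -0.37, Lrr1 from 0.49 to -0.78, and the selenoprotein gene Selenoh from 0.44 to -0.44.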

How the results depend on the processing

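The 1076 separated genes became 3280 without clone C1, 4063 without C11, 2903 without C43 and 2930 without C50, where fewer values have to be apart, and 97 with a difference of at least 1. Leaving out 1 library gave 1259 to 1982. The 2336 genes called in GFP-positive cells became 1220 in a fit of all 16 clone libraries, 1285 with any TPM above 0, 257 without clone C1 and 0 with the clone as a random block or clone means. Leaving out 1 library gave 952 to 3337, with 1 library left in an arm's clone and the spread pooled. The 389 members among them became 228, 246, 62, 0 and 0 in that order, and 184 to 446. The difference of Aqp2 in GFP-positive cells, 1.207, missed the threshold with the random block (adjusted p 0.402) and with clone means (0.994), and ran from 0.917 to 1.497 without a clone. The 1198 genes called with dDAVP became 442 with any TPM above 0, 757 with median ratios and 691 with no trend, and 314 to 2038 without 1 library. The 142 members among them became 51, 80 and 72, 88 with quantiles, and 33 to 246. With a replicate block, the calls were 1629 in GFP-positive cells (300 members) and 122 with dDAVP (14 members), and Aqp2 stood at 1.207 (adjusted p 0.000386). Members called in their own direction in both tests were then 10 higher and 2 lower, from 20 and 61, and 0 mitosis and 1 replication genes were called lower with dDAVP, from 19 and 23. Signs reversed for Snx3 (-0.007 with chromosome medians subtracted), Ube2c (0.034) and Ccn1 (0.015) without C1, H2bc4 (-0.223) without C11 and Ccn1 (0.008) without C43. The cause was not tested. Of the other single-gene values, 1505 in GFP-positive cells and 358 with dDAVP kept direction and call, and 480 and 179 kept the direction only. Depth is unknown, so low genes carry an unknown counting error.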

Other observations

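Of the 10 imprinted genes tested, only Airn separated the sides. Principal cell genes changed from the GFP-negative to the GFP-positive fraction by a median of 0.616 in C1 and 0.505 in C11, and by 0.752 in C43 and 1.17 in C50. The medians over all genes were -0.062, -0.116, -0.156 and 0.085 in that order. The C50 value includes GFP-negative replicate 1, the library that stood apart. Against the mean of all clone libraries, its median principal cell gene stood at -0.854, and at -0.376 in the other GFP-negative C50 library. GFP-positive C50 stood at 0.483 and 0.555. The change of mitosis genes had a negative median in every clone. These values describe the fractions within each clone and were not tested.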
